A study of Drosophila melanogaster with 3 samples.

Results

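Binding of Combgap, a zinc-finger protein that recognises GTGT elements, was described at 10 Drosophila melanogaster genes of the epidermal growth factor (EGF) receptor pathway. The genes were taken by symbol: the ligand genes spi and vn, the receptor gene Egfr, the ligand-processing genes rho, ru and S, the nuclear factor genes pnt and aop, and the inhibitor genes aos and sty. A summit, the position of highest signal in a peak, was counted for a gene when it lay in the gene body or within 5 kb of it. By this rule 9 of the 10 genes held 86 of the 7913 summits in the deposited IDR list, which was thresholded by irreproducible discovery rate, and ru held none.

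ChIP-seq, in which DNA bound by a protein is precipitated with it and sequenced, was done on whole embryos, male and female together, gathered over 0 to 24 h of development. All 3 samples were biological replicates of a single line that carries a transgene of cg, the Combgap gene, with green fluorescent protein (GFP) at the C-terminus. Sonicated chromatin was precipitated with anti-GFP antibody, and the labels do not say whether the flies also kept untagged cg. There was no other genotype, treatment or stage, and an embryo mixture cannot tell in which cells a site was bound.

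The Drosophila EGF receptor is a receptor tyrosine kinase that signals through Ras and MAP kinase. Spitz, the product of spi, is made as a membrane-bound precursor that Star (S) helps to carry out of the endoplasmic reticulum and that Rhomboid proteases, such as those of rho and ru, cut into a secreted ligand. Vein, the product of vn, is a secreted ligand that needs no such cut. In the nucleus the ETS activator Pointed (pnt) and the ETS repressor Yan (aop) compete over target genes. Argos (aos) is secreted and binds Spitz, Sprouty (sty) acts inside the cell, and both dampen the pathway. In embryos the pathway patterns the ventral ectoderm, the midline and the trachea, among other tissues.

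The sequences around the highest summits differed in how many GTGTGT matches they held. The sequences printed belong to the 2 highest genes, to an inhibitor, to a gene with a long GT run, to the 2 genes whose highest summit had no match, and to ru. They are plus-strand RefSeq reference sequence (release 6, dm6 coordinates), reaching 100 bp to each side of the summit, or 50 bp at rho and around the ru run, and none enters an untranslated region. Capitals mark GTGTGT or its reverse complement ACACAC. The spi window (chr2L:19571979-19572179, intron, rank 138) held 26 bases in matches and the pnt window (chr3R:23293087-23293287, intron, rank 166) held 6. The sty window (chr3L:3418288-3418488, intron, rank 406) held 6 and the aop window (chr2L:2175564-2175764, intron, rank 763) held 28, in 1 long run. No match lay in the aos window (chr3L:16480477-16480677, intron, rank 1528) or in the rho window (chr3L:1463703-1463803, in an intron of Ptp61F, rank 4409). At ru, the longest GT run of the window is shown (chr3L:1373158-1373258, intron). It held 18 bases in matches and had no thresholded summit.
spi: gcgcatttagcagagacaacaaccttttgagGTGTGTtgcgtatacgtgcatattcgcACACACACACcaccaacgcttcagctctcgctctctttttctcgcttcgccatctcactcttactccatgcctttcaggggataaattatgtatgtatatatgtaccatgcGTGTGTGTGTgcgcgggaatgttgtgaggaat
pnt: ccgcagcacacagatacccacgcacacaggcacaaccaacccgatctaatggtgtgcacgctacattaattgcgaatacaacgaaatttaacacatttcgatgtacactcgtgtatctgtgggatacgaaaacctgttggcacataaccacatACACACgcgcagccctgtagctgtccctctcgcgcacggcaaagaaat
sty: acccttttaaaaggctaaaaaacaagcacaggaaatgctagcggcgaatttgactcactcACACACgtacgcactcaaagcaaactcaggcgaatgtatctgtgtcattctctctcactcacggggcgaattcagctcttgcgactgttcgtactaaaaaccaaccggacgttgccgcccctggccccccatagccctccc
aop: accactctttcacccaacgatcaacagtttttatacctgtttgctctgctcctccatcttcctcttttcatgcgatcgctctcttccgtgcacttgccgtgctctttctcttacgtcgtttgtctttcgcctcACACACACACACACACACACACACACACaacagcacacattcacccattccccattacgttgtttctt
aos: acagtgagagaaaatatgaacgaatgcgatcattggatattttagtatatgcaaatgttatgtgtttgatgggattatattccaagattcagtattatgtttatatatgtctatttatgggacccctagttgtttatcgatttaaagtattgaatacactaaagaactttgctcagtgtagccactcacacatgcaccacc
rho: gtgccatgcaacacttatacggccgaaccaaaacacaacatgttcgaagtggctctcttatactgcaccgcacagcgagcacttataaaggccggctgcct
ru: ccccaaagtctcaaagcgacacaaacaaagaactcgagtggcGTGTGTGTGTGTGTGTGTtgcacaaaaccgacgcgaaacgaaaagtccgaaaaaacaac

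All 3 replicates and the pooled data were used as ranked peak lists, since read depth is unknown. Most of these genes were bound at many places along their length. The 10 windows spanned 345 kb and held 2.5 summits per 10 kb, against 0.591 over the chromosomes used. Some summits were close together: the 86 summits lay in 58 peak intervals, of which 21 held more than 1 summit and none more than 4. Over the whole list, 7913 summits lay in 6331 intervals. The 58 were told apart by start and end. In the counts per gene, intervals with the same start count as 1, which joins overlapping pnt intervals that differ only in their end. A summit in the window was present at 9 of 10 genes, while 46.7% of the 13945 protein-coding genes had one. Long genes have more room for peaks, so the 3154 protein-coding genes between 5134 and 55937 bp, the shortest and the longest of the 10, were set beside them. Of these, 68.7% had a summit in the window. The median per gene was 9.5 summits for the 10 genes and 2 for the genes of that length range. Per 10 kb the medians were 2.6 and 0.63. The median body was 23027 bp among the 10 genes and 10794 bp in the length range, so length differs even here. At least 10 summits were found at 5 of the 10 genes, vn, S, sty, aop and pnt, and at 2.35% of the genes in the length range. Both counts include the 5 kb flanks. Within the bodies alone there were 8 at vn, 8 at S, 9 at sty, 11 at aop and 16 at pnt. Counted as intervals in the windows, there were 8 at vn, 7 at S, 5 at sty, 9 at aop and 13 at pnt, so only pnt reached 10. The share by interval in the length range is not given.

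**Figure D1:**
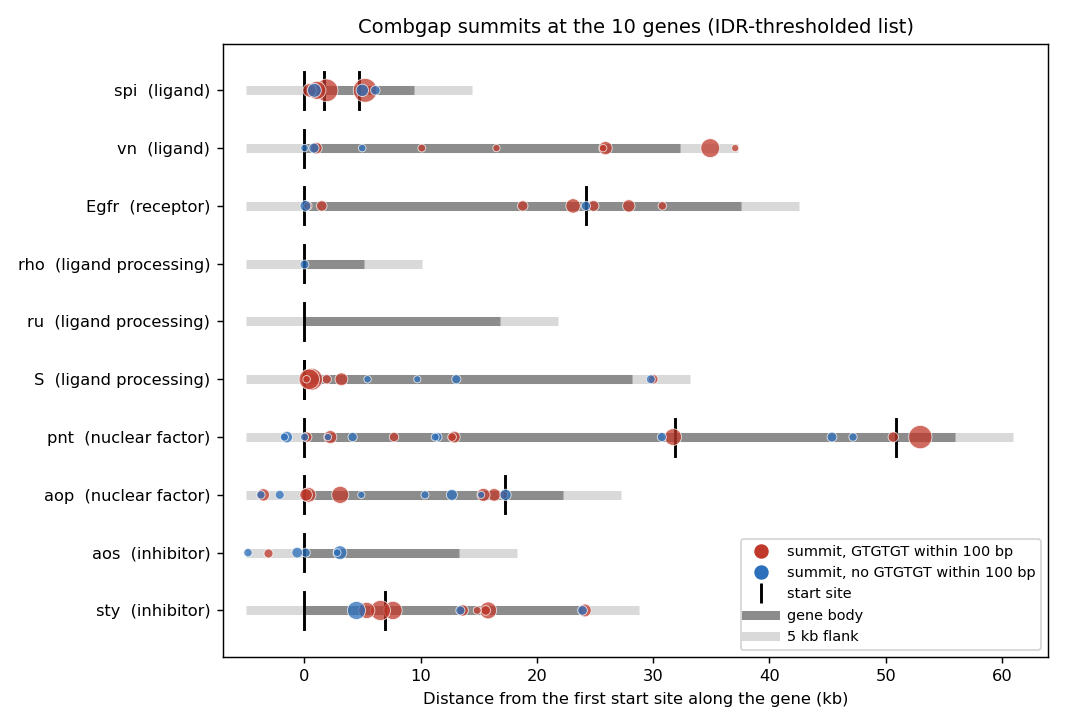
Summits of the IDR-thresholded list at the 10 genes, plotted by distance from the first start site in the direction of transcription (kb); each point is 1 summit, its area grows with the signal relative to the list median, red points have GTGTGT within 100 bp and blue points do not, and black ticks are start sites. The pnt row holds 18 points spread over 3 start sites, the rho row 1 and the ru row none.

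The order of the genes by their highest summit was the same in all 3 replicate lists: spi, pnt, S, sty, vn, aop, Egfr, aos, rho. Rank was taken by peak signal within a list, with 1 the highest, since the signal scale differed between lists. For 2 of the 8 neighbouring pairs in this order, spi with pnt and sty with vn, the replicate ranks overlapped, and for the other 6 they did not. A summit among the 1000 highest lay in the window of 6 of the 10 genes, against 14.4% of protein-coding genes and 24.5% of those in the length range. At vn, counted among the 6, this summit lay outside the gene body, in a neighbouring gene. Inside vn the highest ranked 1654, below the highest of aos (rank 1528). Of all 86 summits, 14 were among the 1000 highest (16.3%, against 12.6% of the list), so as single summits these were close to the list. The median rank was 3419 for the 86 and 3957 for the list. The list holds the pooled rows of highest signal and was derived from these replicates, so overlap with them is no separate check. A row overlapped in all 3 replicate lists for 85 of the 86 summits, as for 99.8% of the list. The exception was a weak vn summit (rank 7355) with no row in replicate 3. The nearest replicate summit lay a median of 11 bp away. The replicates shared 1 control alignment, so their ranks are not fully independent.

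**Figure D2:**
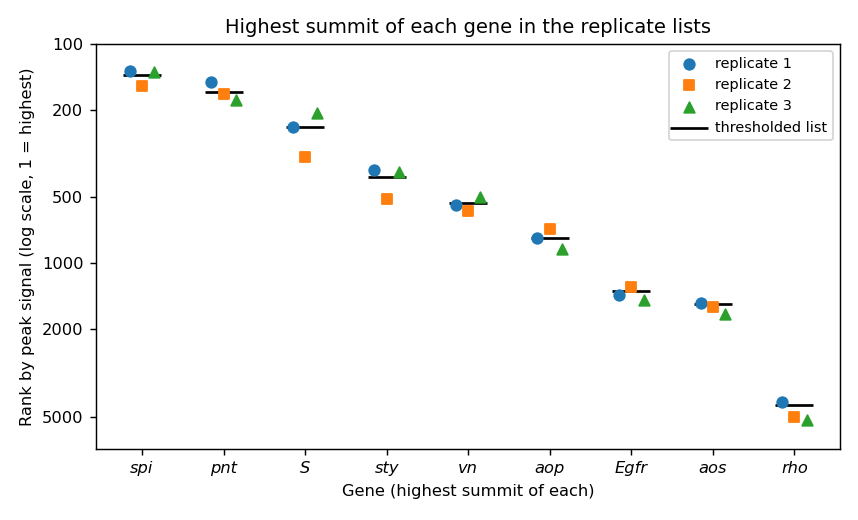
Rank of the highest summit of each of 9 genes by peak signal (log scale, 1 at the top) in the thresholded list (bars) and in the 3 replicate lists (points); ru has no summit. The replicate points of spi, 133 to 156, and of pnt, 149 to 180, overlap, and those of rho, 4279 to 5173, lie below all others.

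The ligand gene spi carried the highest summit of the 10 genes, whereas the highest summit in the window of the ligand gene vn lay at a neighbouring gene. The spi gene (FBgn0005672, 2L, 19567900 to 19577315) encodes Spitz, the main ligand of embryos. Its highest summit (19572079) ranked 133, 156 and 134 in replicates 1, 2 and 3 (141 ± 13.0, SD, n = 3). This was the highest of all 86, with 9.2 times the median signal of the thresholded list. It lay in an intron, 531 bp downstream of the nearest of 3 start sites. A second summit (19575396) lay 191 bp downstream of another start site and ranked 205 in the thresholded list. All 7 spi summits were intronic and within the body, in 2 intervals. Of the 7, 3 were among the 1000 highest and 4 had GTGTGT within 100 bp.

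The vn gene (FBgn0003984, 3L, 5813338 to 5845664) encodes the neuregulin-like ligand Vein. Its window held 10 summits in 8 intervals, with a median rank of 6296, the lowest median of the genes with more than 1 summit. The highest (5810751) ranked 542, 575 and 496 in the replicates (538 ± 39.7). It lay downstream of vn in the 5' untranslated region (UTR) of S6k, which encodes a ribosomal protein kinase, 180 bp from a start site of that gene. Inside vn the highest summit (5819755) was intronic, 25909 bp downstream of the only start site, and ranked 1654. The summit nearest to the vn start site, 20 bp downstream of it, ranked 6713, with replicate ranks of 6614, 7525 and 7478.

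The receptor gene was bound at both of its start sites and along its body, and its highest summit lay between the start sites. Egfr (FBgn0003731, 2R, 21522420 to 21559977) held 9 summits in 7 intervals, all in the body, and none was among the 1000 highest. A summit lay 99 bp downstream of the first start site and ranked 2811 (2896, 2981 and 2997 in the replicates). Another lay 5 bp upstream of the second start site, which is 24223 bp further on, and ranked 3970 (4153, 4014 and 4649). The highest (21545537) ranked 1343 and was intronic, 1106 bp upstream of the second start site (1393, 1283 and 1465 in the replicates, 1380 ± 91.7). The ranks at both start sites stood apart from those of the highest summit in every replicate. Of the 6 summits more than 500 bp from a start site of Egfr, those of rank 1343 and 2020 stood above the summit at the first start site, and the other 4 ranked 2821, 2983, 3068 and 4969. Of the 9 summits, 7 had GTGTGT within 100 bp.

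The 3 genes for ligand processing differed most among themselves. Star (S, FBgn0003310, 2L, 1049674 to 1077815) held 10 summits in 7 intervals. The highest (1077188) lay in the 5' UTR, 623 bp downstream of the nearest start site, and ranked 238, 329 and 207 in the replicates (258 ± 63.4). A second S summit nearer to the start (1077388) ranked 371 in the thresholded list. Both fell in an interval that also held a weak summit 194 bp from the start, whose replicate ranks were 9040, 2994 and 3201. The 2 summits downstream of the S body lay 248 bp and 39 bp from a start site of IA-2, which encodes a tyrosine phosphatase-like protein.

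The gene rho (FBgn0004635, 3L, 1463811 to 1468944), whose product cuts Spitz, held 1 summit. It lay 58 bp upstream of the start site, in an intron of the overlapping phosphatase gene Ptp61F, and ranked 4279, 5014 and 5173 in the replicates (4822 ± 477). Its signal was 0.876 times the list median. The rho body, at 5134 bp, was the shortest of the 10.

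No thresholded summit lay in the window of ru (FBgn0003295, 3L, 1370628 to 1387437), which encodes a relative of Rhomboid. The nearest summit beyond the window was 20558 bp from its body. The list called on pooled alignments did hold 10 ru rows. The highest of them (summit 1367134) ranked 10334 with a signal of 263, where the lowest signal in the thresholded list was 372. Replicates 1 and 3 had a row there, at ranks 9653 and 10207, and replicate 2 had none. A row near 1372900 was present in all 3 replicates at ranks 12481, 13568 and 15568. The longest GT run of ru lay inside a pooled row (summit 1373148) that ranked 23603 of 30000. Signal at ru was therefore weak in every list, and read depth is unknown, so a lack of binding cannot be stated.

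The nuclear factor genes held the most summits. The gene pnt (FBgn0003118, 3R, 23290231 to 23346167), which encodes the activators of the pathway, is the longest of the 10 at 55937 bp and held 18 summits in 13 intervals. The highest (23293187) was intronic, 2051 bp downstream of the last of 3 start sites, and ranked 149, 169 and 180 in the replicates (166 ± 15.7). Each pnt start site had a summit within 500 bp. At the first, the nearest lay at 22 bp (rank 5513) and a stronger summit at 222 bp (rank 3323). A summit lay 133 bp from the second start site (rank 818) and 275 bp from the third (rank 3110). The second start site, 31852 bp from the first, thus carried the strongest of the start-site summits (replicate ranks 889, 670 and 912). The weakest pnt summit, rank 7138, differed most between replicates among the 18, at 11647, 8663 and 22129. The 2 summits upstream of pnt lay nearest to a start site of PolE1, which encodes a DNA polymerase subunit.

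The gene aop (FBgn0000097, 2L, 2156484 to 2178754), which encodes the repressor Yan, held 14 summits in 9 intervals and had the highest density of the 10, at 4.34 per 10 kb. Its highest summit (2175664) ranked 769, 694 and 861 in the replicates (775 ± 83.6). It was intronic, 3090 bp downstream of the first start site, beside a run of 30 bp of GT repeats. Both aop start sites had a summit within 500 bp. At the first, the nearest lay at 153 bp (rank 1942) and a stronger summit at 361 bp (rank 1258). At the second, the nearest lay at 83 bp (rank 2563) and was also the strongest there. Of the 14 summits, 7 had GTGTGT within 100 bp. The 3 summits upstream of the body lay nearest to the start of the noncoding gene lncRNA:CR43751.

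The 2 inhibitor genes stood far apart. The gene sty (FBgn0014388, 3L, 3401153 to 3424935) encodes Sprouty and held 11 summits in 5 intervals. Of its 11 summits, 5 were among the 1000 highest, the most of any of the 10 genes. Its highest summit (3418388) ranked 375, 511 and 382 in the replicates (423 ± 76.6). It lay 427 bp upstream of the second sty start site, in an interval of 4 summits that ranked 406, 603, 620 and 943. In replicate 2 a neighbour in this interval (3420448) stood above it, at rank 506. This neighbour had no GTGTGT within 100 bp, the single such case among the 14 summits in the 1000 highest. The first sty start site, 6974 bp upstream of the second, had no summit nearer than 4487 bp.

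The gene aos (FBgn0004569, 3L, 16470386 to 16483650) encodes the secreted inhibitor Argos and overlaps another gene, CG33158. Its 6 summits in 5 intervals included none of the 1000 highest. The highest (16480577) was intronic, 3073 bp downstream of the start site, and ranked 1513, 1574 and 1697 in the replicates (1595 ± 93.7). The summit 122 bp from the start site ranked 4062, and 4927, 3570 and 6150 in the replicates, all below the highest. Of the 6 summits, 1 had GTGTGT within 100 bp.

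Most start sites of the 10 genes had a summit nearby, and at most of the genes the highest summit lay elsewhere. With start sites of 1 gene up to 500 bp apart joined into a group, the 10 genes had 17 such groups, and 15 had a summit within 500 bp. The exceptions were ru and the first start of sty. Of such groups over protein-coding genes 17.9% had one, and of those in the length range 32.3%. By gene, 9 of 10 had a summit within 500 bp of a start site of their own, against 18.3% of protein-coding genes and 42.7% of those in the length range. The highest summit lay within 500 bp of an own start site at 2 of 9 genes, rho and sty, and beyond it at the other 7. Of all protein-coding genes with a summit, 25.5% had their highest within 500 bp of an own start site, and 39.8% of those in the length range did, so the 2 of 9 genes were near the share of all genes. Counting start sites of any gene, 27 of the 86 summits lay within 500 bp (31.4%), and 45.0% of the list did. Introns held 61 of the 86 summits (70.9%, list 53.6%) and 5' UTRs held 18 (20.9%, list 19.9%). No summit fell in a coding exon, where the list had 1.34%. In all, 26 of the 86 lay nearest to a start site of a gene outside the 10.

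As over the whole list, GTGTGT was more frequent at the strongest summits of these genes than at the others. The motif was sought on both strands within 100 bp of each summit. It was present at 48 of the 86 summits (55.8%), against 63.3% of the list and 12.4% of consecutive tiles of the same width over the chromosomes used. Among the 14 summits in the 1000 highest, 13 had it (92.9%, list 82.4%). Of the other 72, 35 had it (48.6%, list 60.6%). The median rank was 2028 for summits with GTGTGT and 4146 for those without, and 3462 and 4653 over the list. GAGAG, a motif of the GAGA factor, was present at 35 summits (40.7%, list 41.8%, tiles 21.5%). GCCAT, the core of the site of the Polycomb-group protein Pho, was present at 31 (36.0%, list 29.9%, tiles 35.4%). None of the 3 motifs was present at 18 summits (20.9%, list 14.6%). These matches are descriptions of the sequence and were not tested, and neighbouring summits share bases.

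Most GTGTGT in these genes was nonetheless without a summit. Matches less than 50 bp apart were joined into blocks, of which the 10 windows held 284, and 55 had a thresholded summit within 100 bp (19.4%). Over the chromosomes used the share was 6.63%, where summits per 10 kb were also fewer, at 0.591 against 2.5. The aos window had 1 of 16 blocks with a summit and the spi window 7 of 18. No block had a summit at rho (0 of 10) or at ru (0 of 15). Both counts only restate that ru had no summit and that the single rho summit had no GTGTGT within 100 bp. The longest single run was 18 bp at ru and 18 bp at sty, where 9 of 43 blocks had a summit. The longest runs of the 10 were 31 bp at Egfr and 30 bp at aop.

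**Figure D3:**
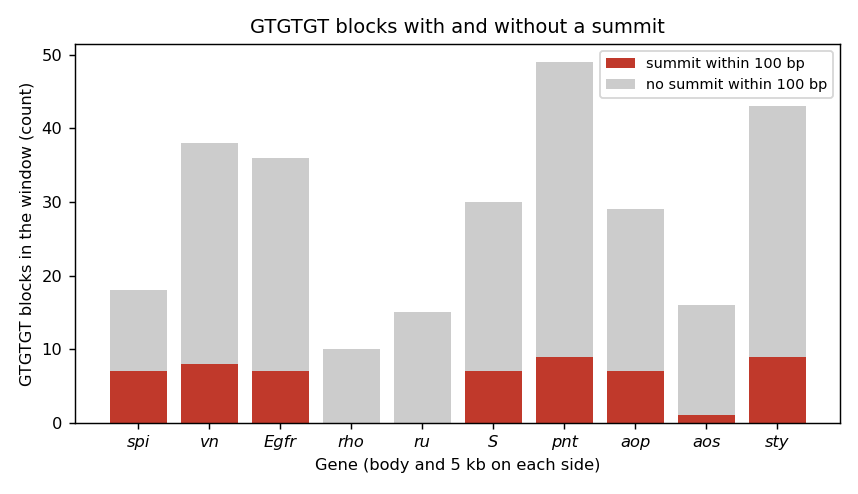
Number of GTGTGT blocks in the window of each gene (body and 5 kb on each side), split by whether a thresholded summit lay within 100 bp. The counts with a summit run from 0 at rho and ru to 9 at pnt and sty.

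Other genes of the pathway, and further genes listed by rhomboid family only, were read by the same rule. Of 27, 18 had a summit in the window (66.7%, against 46.7% of protein-coding genes and 68.7% of those in the length range of the 10), a share near that of genes of such length. A summit among the 1000 highest lay in the window of 12 of the 27, against 14.4% of protein-coding genes and 24.5% of those in the length range. At dos, Ras85D and cnk, which are among the 12, the highest summit lay outside the gene and in the body of another gene. The median body of the 27 was 6038 bp, between the 2166 bp of all protein-coding genes and the 10794 bp of the length range. The relay from receptor to MAP kinase had summits at 8 of 11 genes. Its highest was in the window of the adaptor gene dos (rank 39, replicate mean 43.7 ± 17.7), in the body of the kinase gene msn. The phosphatase gene csw (rank 73, 71.7 ± 10.1) and the adaptor gene drk (rank 290, 297 ± 26.5) followed, each inside the gene, that of drk also inside the overlapping gene mars. No summit lay at Sos, the Ras exchange factor gene, ksr, a scaffold gene, or rl, the MAP kinase gene. The rl window held 25 GTGTGT blocks. Sos, ksr and rl had no row in the pooled list either. Peak lists do not show whether reads could be mapped in these windows, so a lack of binding cannot be stated.

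Further inhibitor genes had summits at 5 of 6, led by Nf1 (rank 342, 349 ± 45.4), RasGAP1 (listed as Gap1, rank 367, 353 ± 72.5) and Cbl (rank 747, 768 ± 55.9), and PTP-ER had none. RasGAP1 and Nf1 act on Ras, and Cbl marks the receptor for turnover. Of the nuclear factor genes, cic (rank 748, 786 ± 70.2) and ttk (rank 886, 914 ± 58.1), both repressor genes, held 14 summits each, while edl, whose product antagonises Yan, had none. In the rhomboid family rho-4 (rank 1502, and 1386, 1702 and 1760 in the replicates) and rho-5 (rank 2793, 3038 ± 479, in dpr19) had summits, and stet, rho-6 and rho-7 had none. The ligand gene Krn had 2 summits, the highest in the neighbouring gene Pep (rank 2562, 2796 ± 225), and grk, the ligand gene of the germ line, had none.

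**Figure D4:**
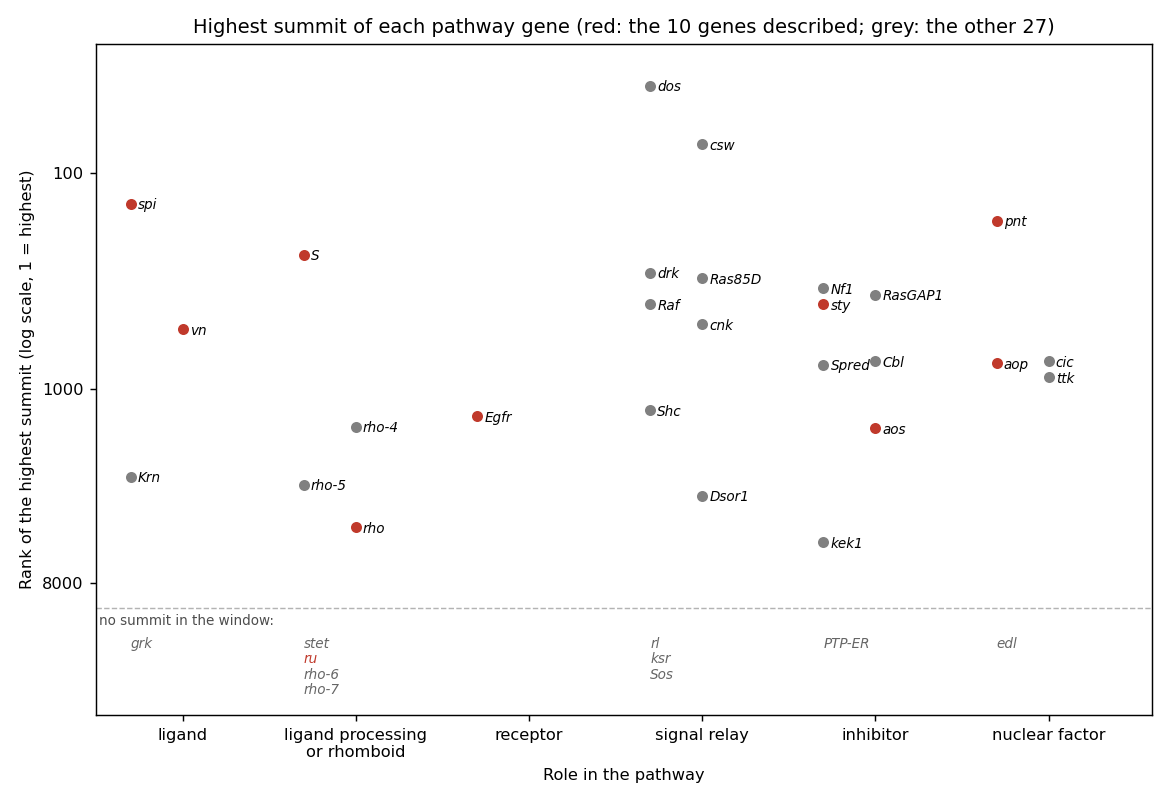
Rank of the highest thresholded summit in the window of each of 37 genes of the pathway or the rhomboid family, by role (log scale, high ranks at the top). Red points are the 10 genes described and grey points the other 27, and genes under the dashed line have no summit. The rhomboid genes lie at 1502 and below. The windows of signal relay genes hold the highest ranks, 39 (dos, in the body of msn) and 73 (csw).

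The limits of both rules touched a few summits. The weakest thresholded summits of the 10 genes had signals of 376 at aop, 382 at S and 389 at vn. The strongest pooled summits just outside the list had 368 and 359 at aop, 364 at pnt and 357 at vn. By distance, an aos summit 4843 bp from the body (rank 5013) was counted and one at 5042 bp (rank 6560) was not. A further aos summit left out, at 5913 bp, ranked 1433 and so stood above the highest one counted for aos (rank 1528). At sty, summits 5369 bp (rank 2688) and 5579 bp (rank 1164) from the body were left out.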

How the data were processed

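Peak lists on dm6 were used: 1 for each of 3 replicates, 1 called on the pooled alignments (30000 rows each) and 1 IDR-thresholded list of 7913 rows, derived from the other lists and 1 shared control per the deposited text listings. All 7913 are the pooled rows of highest signal. Which aligner, caller and IDR threshold were used is not given in the sources used here. Peak signal was deposited by the authors as their caller gave it and was used as a rank or as a ratio within a list. Per the deposited columns, a −log10 q value is also given for each peak, and it ranked nothing here. Read depth is unknown, so no precision from depth can be given.

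Genes, 13945 protein-coding, came from Ensembl release 115 (BDGP 6.54) and sequence from RefSeq release 6, with the coordinates of dm6. Python 3.11.15, numpy 2.4.6, pandas 2.3.3 and matplotlib 3.10.9 were used. Chromosomes 2L, 2R, 3L, 3R, 4 and X were read, and coordinates count from 1. A replicate row had to overlap by at least 1 bp, and that with the nearest summit was taken. An SD is over 3 replicates. The design has 1 group, so no test was run, and counts stand beside the shares of all genes or summits. The count of summits in windows and the search for GTGTGT and its blocks were tested on simulated data, and the other steps were not. All 10 genes were named, with the 3 highest pathway genes of each role, those without a summit, and genes that held or adjoined a highest summit. Genes at other summits, the groups of start sites, the share of genes with the highest summit at a start site and the motif counts by rank were chosen after values were seen. The members and lists were chosen with earlier results of these data known.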

Additional observations from a re-analysis of the deposited data

How the results depend on the processing

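A summit was found at 8 to 10 of the 10 genes under every distance and list tried: 8 with the gene body only (rho lost), 9 at 1 kb and 10 kb, 8 among the stronger summits of the list, those above its median signal, and 10 in the pooled list, where ru has rows. Of the other 27 genes, 15 to 23 had one. The number of summits moved more. It was 50 above the median signal of the thresholded list, 246 in the pooled list and 55 when only summits with a rank up to 5000 in each replicate were kept, or 57 to 58 with a replicate left out. One summit per interval, or only summits nearest to a start site of the 10 genes, both chosen after seeing the data, gave 58 and 60. Summits near any start site were 17 at 250 bp and 43 at 1000 bp. GTGTGT blocks with a summit were 95 with the pooled list. The pooled list has 30000 rows against 7913, and shares over all genes, summits or blocks at these settings are not given here. These counts therefore show how far the values moved, and not a difference from other genes. With the gene body only, the highest vn summit had a mean replicate rank of 1688, and rho had none. No paired analysis was possible because the design has 1 group. Unknown read depth and the 30000 rows of each list limit what a missing peak can show.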

Other observations

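In the windows of the 10 genes, 29 pairs of neighbouring summits had peak intervals with the same start, at distances of 199 to 1176 bp with a median of 210 bp. Of the 86 summits, 6 had the same replicate row as a neighbour, so their replicate ranks are not separate values.

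Weaker rows of the pooled list extended along the same genes. Of 246 pooled summits in the 10 windows, 152 lay outside every thresholded interval, and 144 of these were more than 500 bp from any thresholded summit. Thresholded rows made up 86 of the 246, and 7913 of the 30000 rows of the whole pooled list. Most pooled rows were therefore outside the thresholded list in both, so this is not particular to these genes. Of the 152, 33 were at pnt and 28 at vn, with 5 each at spi, aos and rho. At ru all 10 pooled summits were of this kind. The rl window, with 54466 bp of gene body, and the Sos, ksr and rho-6 windows had no pooled row at all, while the edl window, without a thresholded summit, had 13.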
